A study of Mus musculus with 20 samples.

Results

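The epithelial-mesenchymal state of Py8119 tumors was followed through 10 transcripts: the adhesion genes Cdh1 and Epcam, the mesenchymal genes Cdh2 and Vim, and the transcription factors Zeb1, Zeb2, Snai1, Snai2, Twist1 and Twist2. They were taken by name, as 10 of the 55866 genes in the count table, and all 10 passed the filter on low counts in every comparison. Py8119 is a murine mammary carcinoma line from the MMTV-PyMT model, syngeneic to C57BL/6J. The host animals were female RiboTagEC mice on a C57BL/6J background, in which tamoxifen (75 mg/kg for 5 days from an age of 3 weeks) makes cells with an active Cdh5 promoter, the one that drives CreERT2, put a hemagglutinin (HA) epitope on Rpl22 of their ribosomes. Tumor cells were implanted into a mammary fat pad at 8 weeks, and mice received 25 mg/kg of 6-3-A6, a mouse antibody that neutralizes Notch4, or control mouse IgG over 10 days, from a tumor volume given as 30 mm3 in the sample labels and 50 mm3 in the design text. All animals carried the tag and received tamoxifen, so both treatment groups share them. From each of 10 tumors, 5 per treatment, the whole homogenate (input) and the ribosomes pulled down with anti-HA (IP) were sequenced, which gave 20 libraries in 4 groups: control IgG input, 6-3-A6 input and the IP counterpart of each. Input holds the RNA of tumor cells and stroma together, whereas IP is directed at endothelial cells (EC). The implanted tumor cells do not come from tagged animals.

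Epithelial cells are held together by E-cadherin, the product of Cdh1, and carry Epcam, a surface adhesion molecule. During epithelial-mesenchymal transition the factors of the Zeb and Snail families repress such genes through E-boxes in their promoters, Twist factors act in the same programme, and N-cadherin (Cdh2) and the intermediate filament protein vimentin (Vim) increase. On the other hand, none of the mesenchymal genes belongs to carcinoma cells alone: fibroblasts, macrophages and EC express Vim, and stromal cells use Zeb and Twist factors as well.

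On GRCm38 (GENCODE vM21), Cdh1 lies at chr8:106603351-106670246, Epcam at chr17:87635979-87651129, Vim at chr2:13573927-13582826, Zeb2 at chr2:44983632-45117395, Snai1 at chr2:167538195-167542814, Snai2 at chr16:14705852-14709385, Twist1 at chr12:33957671-33959829 and Twist2 at chr1:91801461-91848028, with Zeb2 on the minus strand and the others on the plus strand. Counting used whole gene spans, introns included, from another annotation that places 9 of the 10 genes elsewhere. The spans of Cdh2, Zeb1, Zeb2 and Twist2 overlap other genes over at most 6.33% of their length, and whether counting used the strand is not given in the sources used here, so reads of such partners cannot be told apart there.

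The E-box bound by Zeb and Snail factors reads CAGGTG on one strand and CACCTG on the other. Promoter sequences of RefSeq (GRCm38.p6, mouse) were available for 6 of the 10 genes, with 9 start sites, and the 250 bases before each start were searched on both strands. Epcam held 2 E-boxes and Snai1 held 1, and the windows of Vim, Twist1, Twist2 and the 4 starts of Zeb2 held none. The stretches of 30 bases around them are shown because Epcam is an adhesion gene of this class and Snai1 a factor of it, and the E-box is in capitals. They lie on the plus strand at chr17:87635780-87635809, chr17:87635948-87635977 and chr2:167538057-167538086, and the motif begins 187, 19 and 126 bases before the start, respectively.
Epcam distal: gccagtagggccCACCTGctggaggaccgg
Epcam proximal: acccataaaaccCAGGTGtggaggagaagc
Snai1: gcagcccaggcgCACCTGctccggtctcag
Of 32851 mouse promoters of the same length, 17.2% held at least 1 such E-box and 2.06% held 2 or more. A match is a description of the letters and not evidence of binding.

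The libraries held between 11881214 and 26728205 counts on genes, and 3 counts, the limit that a count of 0 allows, equal 0.104 to 0.314 CPM (counts scaled to a library of 1000000 with TMM factors) depending on the library, for counting error only. The summed level of 12 endothelial markers was 144 to 241 CPM in input and 959 to 5816 CPM in IP, and the 6 keratins taken as mammary epithelial markers summed to 237 to 490 CPM in input. The median log2 fold change of these 12 between IP and input was 4.44, and all 12 were higher in IP. Macrophage markers were also high in both fractions (6086 to 14514 CPM in input, 3087 to 8413 CPM in IP, 8 genes). In the deposited labels a description line of the 6-3-A6 libraries names the opposite fraction from their titles. The titles were followed, and the endothelial sums above separate the libraries as titled. 6-3-A6 input 4 stood apart in its scaling, with a TMM factor of 0.68 against 0.89 to 1.12 in the other 19 libraries, and values without it are given beside several that it moved.

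Vim was by far the most abundant of the 10 transcripts in whole tumors, and Epcam and Twist2 were the least abundant. Reads were counted over whole gene spans, introns included, so levels were compared between genes per kilobase of span and again per kilobase of annotated exon. On the first scale the mean level in control IgG input was 496 CPM per kb of span for Vim, 24.2 for Twist1, 14.2 for Snai1, 6.04 for Snai2, 2.09 for Zeb2, 0.81 for Cdh2, 0.62 for Zeb1, 0.57 for Cdh1, 0.21 for Epcam and 0.088 for Twist2. The per-exon scale moved the genes with long introns upward, so that Cdh2 had 35.9 CPM per kb of exon against 40.5 for Snai1, 32.1 for Twist1 and 8.64 for Cdh1. On both scales Cdh2 exceeded Cdh1, and Zeb2 exceeded Zeb1. Exons make up 2.25% of the span of Cdh2 and 75.4% of that of Twist1, so neither scale is free of intron reads. In bulk tumor RNA, fewer cells of a type and less RNA per cell cannot be told apart.

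Cdh1 was detected in every library. In control IgG input it reached 76.9, 34.2, 25.1, 28.1 and 27.0 CPM in tumors 1 to 5, and in 6-3-A6 input 26.0, 24.9, 33.9, 40.8 and 23.4 CPM. Tumor 1 of the control group was high by itself, and the other 9 lay within one range. The group means were 38.3 ± 21.9 CPM (SD, n = 5) and 29.8 ± 7.36 CPM (SD, n = 5), and the log2 fold change of 6-3-A6 over control IgG was -0.38 (SE 0.31, edgeR adjusted p = 1.00). Without control IgG input 1 it was 0.04.

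Epcam had low counts, 22 to 87 per input library, which is above the limit of 3 counts. Its levels were 1.84, 4.82, 1.87, 3.00 and 4.36 CPM in control IgG input and 2.27, 2.33, 4.16, 9.11 and 6.42 CPM in 6-3-A6 input. The ranges overlapped, 6-3-A6 input 4 and 5 were the highest, and the log2 fold change of 0.57 (SE 0.44, edgeR adjusted p = 1.00) fell to 0.23 without 6-3-A6 input 4.

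Cdh2 was the steadier of the cadherins across control tumors. Its levels were 173, 157, 202, 175 and 184 CPM in control IgG input, a coefficient of variation of 9.23%, and 175, 157, 148, 299.9 and 129.6 CPM in 6-3-A6 input, where tumor 4 was far above the rest. The means of 178 ± 16.4 and 182 ± 68.0 CPM (SD, n = 5 each) differed by a log2 fold change of 0.01 (SE 0.22, edgeR adjusted p = 1.00), which was -0.23 without 6-3-A6 input 4. The ratio of Cdh2 to Cdh1 within a library ran from 2.24 to 8.04 in control IgG input (median 6.23, n = 5) and from 4.36 to 7.35 in 6-3-A6 input (median 6.28, n = 5). This is a ratio of CPM over spans of unequal length and only its change between libraries can be read.

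Vim varied least over the input libraries, from 3458 to 5947 CPM, a ratio of 1.72 between the highest and the lowest. Group means were 4411 ± 578 CPM in control IgG input and 4650 ± 773 CPM in 6-3-A6 input (SD, n = 5 each; log2 fold change 0.06, SE 0.20).

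Among the transcription factors, Zeb1 measured 103, 97.0, 131, 120.1 and 116 CPM in control IgG input and 135, 158, 121, 139 and 66.1 CPM in 6-3-A6 input. Tumor 5 of the 6-3-A6 group was the lowest of all 10. Zeb2, its paralog and a factor that macrophages also use, had means of 279 ± 77.1 and 334 ± 94.5 CPM (SD, n = 5 each). Snai1 averaged 65.7 ± 21.7 and 66.9 ± 17.3 CPM, and its values fell apart within each group, with 41.0 and 43.9 CPM in control tumors 4 and 5 against 75.3 to 88.2 CPM in tumors 1 to 3, and 39.6 CPM in 6-3-A6 tumor 4 against 61.5 to 83.6 CPM.

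Snai2 and Twist1 shared their highest library. Snai2 was 22.6, 17.9, 14.1, 28.6 and 23.5 CPM in control IgG input and 14.7, 20.4, 11.5, 70.9 and 22.3 CPM in 6-3-A6 input. Twist1 was 64.1, 43.3, 67.8, 43.4 and 42.5 CPM in the control tumors and 50.6, 47.8, 71.3, 128 and 40.3 CPM in the 6-3-A6 tumors. Both peaked in 6-3-A6 input 4, the library with the low TMM factor, where Cdh1 at 40.8 CPM, Epcam, Cdh2 and Zeb2 at 483 CPM were also the highest of their group. Without that library the log2 fold change of 6-3-A6 over control IgG turned from 0.35 to -0.32 for Snai2, and it went from 0.35 to 0.006 for Twist1 and from 0.25 to 0.09 for Zeb2. Twist2 stayed between 2.32 and 7.40 CPM in the 10 input libraries.

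**Figure D1:**
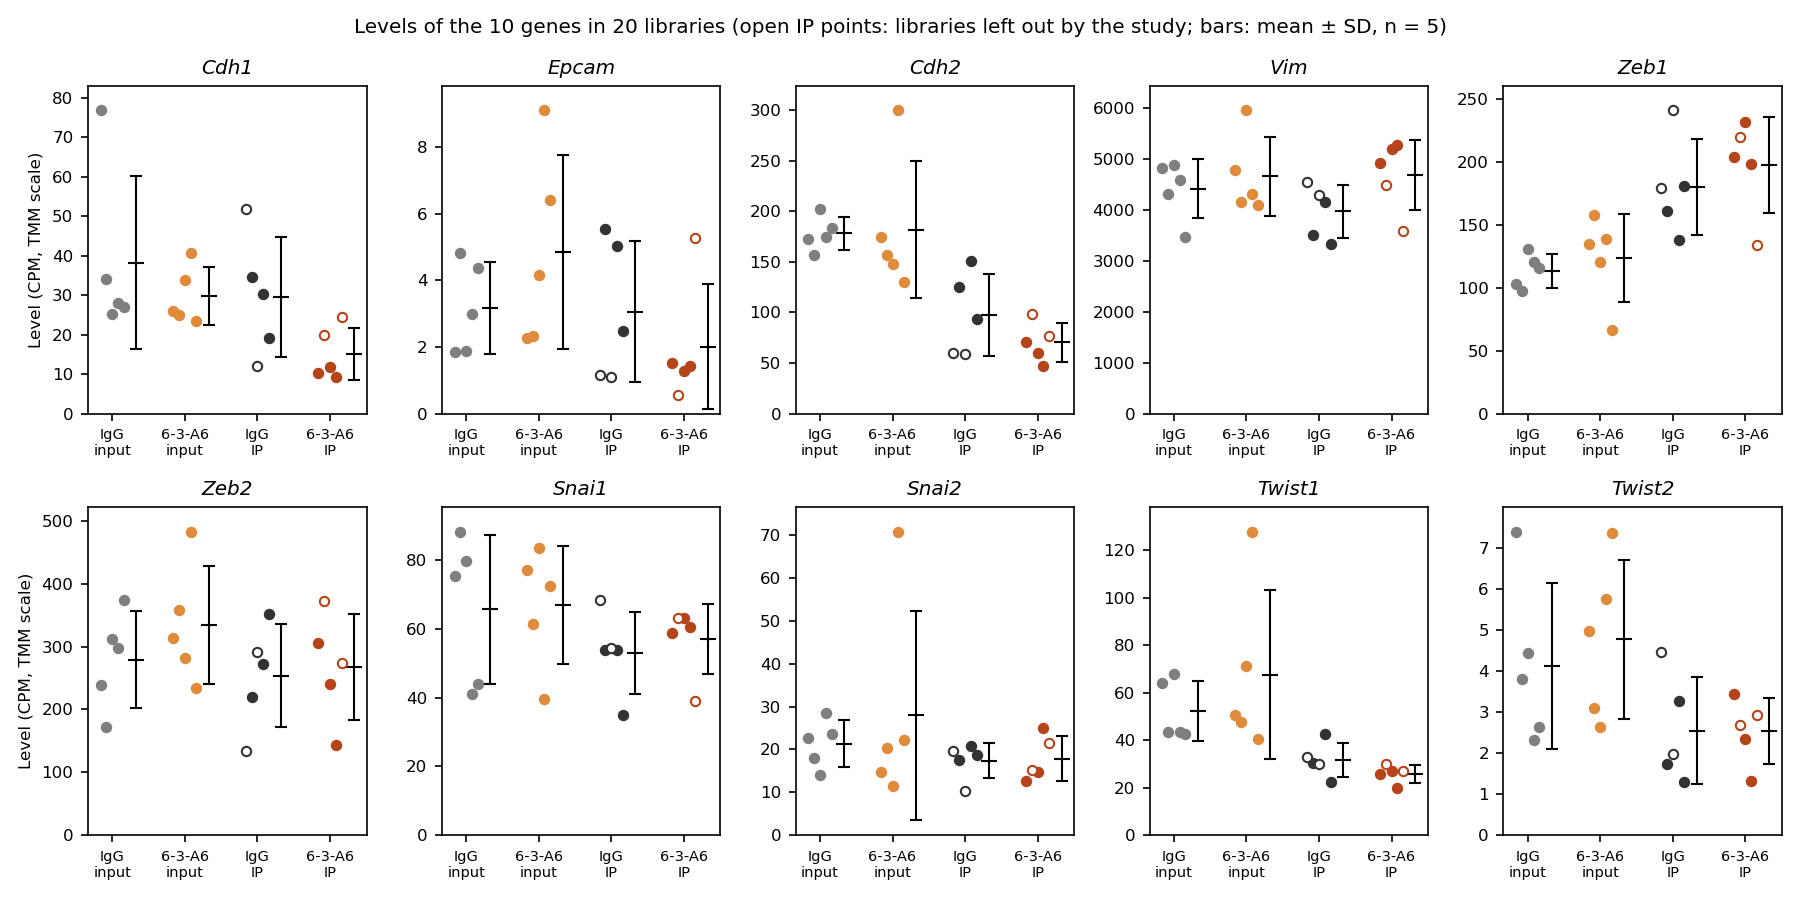
Level of each gene (CPM, TMM scale, linear axis from 0) in the 20 libraries by group, with each point a tumor and each bar the mean ± SD of 5 libraries. Open points among the IP libraries are those the study left out, and Zeb1 is the gene whose IP points lie mostly above its input points, whereas those of Cdh2 and Twist1 lie mostly below.

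In input, 0 of the 10 genes were called between 6-3-A6 and control IgG. The background was the same: 0% of the 13683 genes in edgeR's quasi-likelihood test had an adjusted p under 0.05, 180 genes had an unadjusted p under 0.05, and DESeq2 called 0 as well. No gene of the 10 was among those 180. The log2 fold changes ran from -0.38 (Cdh1) to 0.57 (Epcam), with a median of 0.15 against 0.01 over all tested genes, and the groups overlapped for all 10. That median was 0.085 without 6-3-A6 input 4, 0.21 without 6-3-A6 input 3 and 0.28 in the 6 tumors of the study's IP comparison. The standard errors lay between 0.20 (Vim) and 0.44 (Epcam), which sets the size of difference that could have been seen. When 200 genes were changed in simulated counts of this design, 31 of 97 changed 2-fold and 81 of 93 changed 4-fold were recovered.

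The other genes of the epithelial-mesenchymal programme were taken from 4 lists and gave 0 calls in input as well. Tested genes numbered 13 of 27 in the list of epithelial genes (claudins, keratins and epithelial factors), 16 of 16 mesenchymal genes, 14 of 17 inducers of the transition and 9 of 12 cadherins and catenins. The smallest unadjusted p in each list belonged to Spint1, an epithelial protease inhibitor (log2 fold change -0.57, 48.6 against 71.6 CPM), Loxl2, a collagen cross-linking enzyme (-0.74), Tgfb1 (-0.50, 209 against 294 CPM) and Cdh15, the muscle cadherin (-1.15, 4.14 against 9.16 CPM), all with an edgeR adjusted p of 1.00.

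Some of the 10 genes varied together across the 10 input libraries, which are separate tumors but share library preparation and scaling. The pairs given are a selection from all pairs of the 10 genes. Snai1 and Snai2 ran in opposite directions (Pearson r = -0.79, Spearman rho = -0.88, n = 10, and r = -0.60 without the 2 libraries farthest from the median of Snai1). Zeb1 and Zeb2 ran together (r = 0.66, rho = 0.77, and 0.83 without 2 libraries). The relation of Cdh2 with Twist1 (r = 0.78, rho = 0.37) rested on 2 libraries, since r was 0.03 without them.

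The levels were also set beside the summed markers of 8 cell types in the same libraries, as a description, and the relations given are mostly among the closest. Zeb1 was low where macrophage markers were high (r = -0.89, rho = -0.95, n = 10, and -0.74 without 2 libraries): 6-3-A6 input 5 had the lowest Zeb1 and the highest macrophage sum, 14514 CPM. Epcam followed the 4 adipocyte markers (r = 0.87, rho = 0.92, and 0.83 without 2 libraries), whose sums ranged from 1.95 to 46.8 CPM and were highest in 6-3-A6 input 4 and 5. Snai1 rose and fell with the endothelial markers (r = 0.81, rho = 0.83, and 0.64 without 2 libraries). Cdh1 followed the mammary keratins weakly over 10 libraries (r = 0.34, rho = 0.43) and closely without the 2 farthest libraries (r = 0.93), and it followed the mural markers at r = 0.84 (rho = 0.61, and 0.50 without 2 libraries). Its relation with the fibroblast markers (r = 0.81, rho = 0.56) fell to 0.20 without 2 libraries, and control IgG input 1 had both the highest Cdh1 and the highest fibroblast sum, 4078 CPM.

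For each gene, the 3 tested genes whose log2 CPM followed it most closely over the 10 input libraries were named by Pearson r among 13682 others. Epcam was followed by Fabp4, a fatty acid binding protein of adipocytes and macrophages (r = 0.95), Bin2 (0.93) and Mrap, an accessory protein of melanocortin receptors known from adrenal and fat (0.93). Without the 2 libraries farthest from the median of Epcam these r were 0.90 to 0.92. Nearest to Cdh1 were Socs2, a suppressor of cytokine signaling (0.96, and 0.88 without 2 libraries), ENSMUSG00000121095 (0.95, 0.77) and Gm41307 (0.95, 0.52).

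Cdh2 was followed by Slc35f1 (0.97), Fgf14 (0.96) and 6030442K20Rik (0.95), all with mean input levels of 1.16 to 2.61 CPM, and Vim by 4933417E11Rik (0.91), Ccdc189 (0.90) and Eif3h, a subunit of a translation initiation factor (0.90). For the factors, r was highest with Ppp2r3a, Kbtbd2 and Jmy (0.97, 0.97 and 0.96) for Zeb1, with Ints6, Msl2 and Cep85l (0.99, 0.97 and 0.97) for Zeb2, and with Gpihbp1, the endothelial anchor of lipoprotein lipase, Slc2a10 and Tmem151a (0.97, 0.97 and 0.94) for Snai1. Snai2 was nearest to Actr6, Fam71f1 and Fra10ac1 (0.97, 0.96 and 0.96), Twist1 to Bloc1s6, Hexim2 and Gata6 (0.98, 0.97 and 0.97), and Twist2 to Cox18, Tshz2 and Gm40323 (0.96, 0.96 and 0.95). With so many genes compared over 10 libraries, high values occur for every gene, and the lists are a description of these tumors.

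In the IP fraction, Cdh2 and Twist1 were 2.18-fold and 2.08-fold lower than in input, Cdh1 and Twist2 were lower as well, and Zeb1 alone was higher. Over 20 libraries with treatment in the model, 5 of the 10 genes were called between IP and input, 4 lower and 1 higher, where 40.8% of 14095 tested genes were called. At this background the count of 5 is no result about the 10 genes, and the sizes and directions are what follows. The median log2 fold change of the 10 was -0.57 against -0.06 over all tested genes, and without 6-3-A6 input 4 it was -0.37 against -0.02.

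Cdh2 was lower in IP in 10 of 10 tumors. Its IP levels were 59.7, 125, 59.3, 151 and 93.3 CPM in control IgG and 70.3, 98.2, 59.4, 47.4 and 77.2 CPM in 6-3-A6, against input levels of 129.6 to 299.9 CPM. The log2 fold change was -1.12 (SE 0.19, edgeR adjusted p = 0.000106) and stayed between -1.21 and -0.96 with each library left out in turn. With the tumor as a block it was -1.15 (SE 0.20, edgeR adjusted p = 0.000343). In control tumors 2 and 4 the IP lay closest to input, with log2 ratios of -0.33 and -0.21.

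Twist1 was also lower in 10 of 10 tumors, with IP levels of 33.1, 30.3, 30.1, 42.6 and 22.4 CPM in control IgG and 25.6, 30.0, 27.1, 19.8 and 26.9 CPM in 6-3-A6. The log2 fold change was -1.06 (SE 0.20, edgeR adjusted p = 0.000247), and without 6-3-A6 input 4 the log2 fold change was -0.84 (adjusted p = 8.4e-05). With the tumor as a block it was -0.98 (SE 0.19, edgeR adjusted p = 0.000828).

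Zeb1 went the other way, higher in IP in 10 of 10 tumors. Its IP levels were 179, 161, 241, 138 and 181 CPM in control IgG and 204, 220.3, 232, 198 and 134 CPM in 6-3-A6. The log2 fold change was 0.67 (SE 0.14, edgeR adjusted p = 0.000889), 1.59-fold higher, and it lay between 0.59 and 0.74 with each library left out in turn. With the tumor as a block it was 0.68 (SE 0.092, edgeR adjusted p = 4.3e-05). The gain was smallest in control tumor 4, with a log2 ratio of 0.20.

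Zeb2, by contrast, had IP levels of 134 to 372 CPM and a log2 fold change of -0.24 (SE 0.19, edgeR adjusted p = 0.33), lower in 7 of 10 tumors and higher in 3. The difference between the Zeb paralogs was not tested.

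Cdh1 was lower in IP in 7 of 10 tumors and higher in control tumors 2 and 4 and 6-3-A6 tumor 5. Its IP levels were 51.8, 34.5, 12.1, 30.2 and 19.0 CPM in control IgG and 10.4, 19.8, 11.9, 9.37 and 24.4 CPM in 6-3-A6. The log2 fold change was -0.68 (SE 0.26, edgeR adjusted p = 0.0442), and with the tumor as a block it was -0.71 (adjusted p = 0.00998). Without the block the call was lost in 12 of 20 fits that left out 1 library. These were the fits without control IgG input 1 (-0.50, edgeR adjusted p = 0.129), without control IgG IP 3, 4 or 5, without 6-3-A6 input 1, 2, 3 or 4, and without 6-3-A6 IP 1, 2, 3 or 4, where the adjusted p lay between 0.0508 and 0.129.

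Epcam was not called without the block (IP 1.14, 5.55, 1.10, 5.04 and 2.47 CPM in control IgG and 1.52, 0.547, 1.27, 1.42 and 5.28 CPM in 6-3-A6, log2 fold change -0.65, SE 0.42, edgeR adjusted p = 0.21). With the tumor as a block, which uses the shared origin of input and IP, it was lower in IP (-0.82, SE 0.30, edgeR adjusted p = 0.0316). The block raised the count from 5 to 6 of 10, where it also raised the share of all tested genes called from 40.8% to 51.6%.

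Twist2 was lower in 9 of 10 tumors (2.54 against 4.44 CPM, log2 fold change -0.81, SE 0.27, edgeR adjusted p = 0.0214), and its call was lost without control IgG input 1 (-0.66, adjusted p = 0.0559). Snai2 (-0.48, SE 0.26, and -0.11 without 6-3-A6 input 4), Snai1 (-0.28, SE 0.16) and Vim (-0.08, SE 0.13) were not called. Vim measured 4325 ± 690 CPM in IP and 4531 ± 656 CPM in input (SD, n = 10 each).

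**Figure D2:**
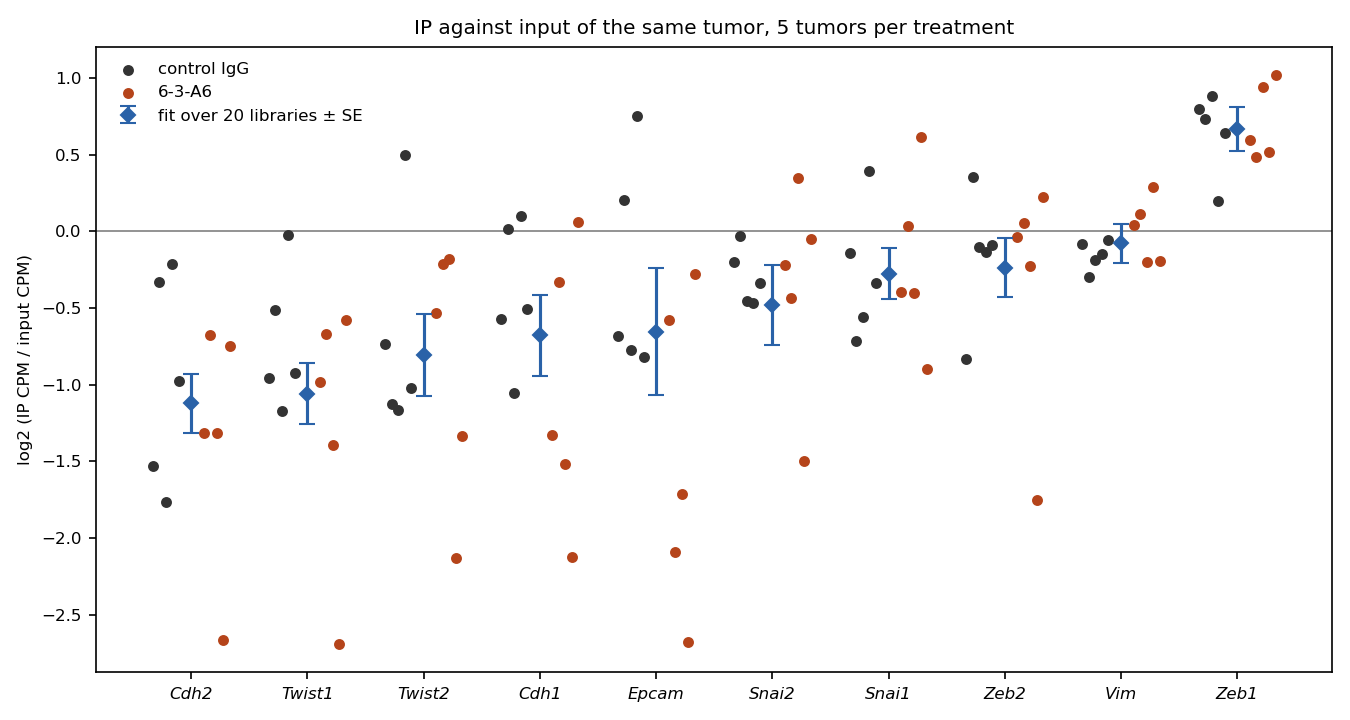
Log2 ratio of IP to input CPM of the same tumor for each gene, ordered by the fitted log2 fold change (diamonds ± SE), with black points for control IgG and red points for 6-3-A6 tumors. All 10 points of Zeb1 lie above 0 and all 10 points of Cdh2 and of Twist1 below it, and 6-3-A6 tumor 4 gives the lowest point of Cdh2, Twist1, Twist2, Cdh1, Epcam, Snai2 and Zeb2.

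Within each treatment, fewer of the 10 were called. In control IgG, Cdh2 (log2 fold change -0.87, edgeR adjusted p = 0.0374) was lower and Zeb1 (0.67, adjusted p = 0.0395) higher, 2 of 10 genes where 11.4% of 14488 were called. Both calls were lost when single control libraries were left out, that of Cdh2 without control IgG input 1, 2, 3, 4 or 5 or control IgG IP 1, 3 or 5 (adjusted p up to 0.116), and that of Zeb1 without control IgG input 1, 2, 3, 4 or 5 or control IgG IP 1, 2, 3 or 5 (adjusted p up to 0.137). Over all fits that left out a single library the log2 fold changes stayed between -1.04 and -0.73 for Cdh2 and between 0.54 and 0.78 for Zeb1. In the control tumors of the study's IP comparison, Cdh2 was -0.48 and Zeb1 0.53, neither called. Twist1, at -0.72 (edgeR adjusted p = 0.0794), was called without control IgG IP 4 (-0.82, adjusted p = 0.0491) and without 6-3-A6 input 4 (-0.70, adjusted p = 0.019). Of the others, Twist2 was at -0.70 and Cdh1 at -0.38, and Snai1, Snai2, Vim, Zeb2 and Epcam lay between -0.31 and -0.05. With the tumor as a block the count stayed at 2 of 10, where 22.4% of all tested genes were called.

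In 6-3-A6, Cdh2 (-1.37, edgeR adjusted p = 0.00089) and Twist1 (-1.38, adjusted p = 0.000708) were lower and Zeb1 (0.68, adjusted p = 0.0202) higher, 3 of 10 genes where 26.3% were called. With the tumor as a block, Cdh1 (-1.04, edgeR adjusted p = 0.0106), Epcam (-1.42, adjusted p = 0.00886) and Twist2 (-0.85, adjusted p = 0.0481) were also lower, which made 6 of 10, where 38.3% of all tested genes were called with the block. Without the block these 3 were at -0.98, -1.25 and -0.90, and Snai2 (-0.64, but 0.08 without 6-3-A6 input 4), Zeb2 (-0.32, and -0.13 without that library), Snai1 (-0.23) and Vim (0.01) were called in neither fit. DESeq2, also without the block, called Cdh1 lower (-0.93, adjusted p = 0.0477). Without 6-3-A6 IP 3 the call of Zeb1 was lost (0.62, edgeR adjusted p = 0.0515). Cdh1 was called without control IgG input 1, without control IgG IP 1 or 3 and without 6-3-A6 IP 5 (-1.21, edgeR adjusted p = 0.0249), and Epcam without 6-3-A6 IP 5 (-1.998, adjusted p = 0.0113), the library with the highest Epcam of its group. Without 6-3-A6 input 4 Epcam was at -0.86.

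The order of the 4 groups had few steps larger than the spread. For Cdh2 the step from control IgG input (178 CPM) down to control IgG IP (97.7 CPM) exceeded the larger SD and the groups did not overlap. For Twist1 the step from control IgG input to control IgG IP (52.2 to 31.7 CPM) and for Zeb1 the step from control IgG IP to 6-3-A6 input (179.9 to 124 CPM) exceeded the larger SD, with overlapping ranges. Every other pair of neighbouring groups, for all 10 genes, differed by less than the larger SD.

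Around the 10 genes, the lists moved in a mixed way between the fractions. Of 14 tested epithelial genes, 1 was higher in IP (Marveld2, a tight junction protein, log2 fold change 0.86, edgeR adjusted p = 0.0229) and 2 were lower, the keratin Krt18 (-0.86, adjusted p = 0.000416) and Spint1 (-0.58, adjusted p = 0.0304). Of 16 mesenchymal genes, 2 were higher and 4 lower (7 lower with the tumor as a block). Sparc, a matrix protein that EC also make, had the largest log2 fold change (1.94, 4903 against 1281 CPM), and S100a4 came next (-1.54). Among 14 inducers, 2 were higher, the factors Klf8 (1.73) and Tcf4 (1.65, 763 against 241 CPM), and 4 were lower, among them Tgfb3 (-0.85). Of 9 cadherins and catenins, 6 were higher, led by the endothelial cadherins Cdh5 (4.36, 944 against 46.0 CPM) and Cdh13 (3.82) and by Jup, plakoglobin (2.94). Cdh2 went in the opposite direction to these endothelial cadherins. All values in this paragraph are log2 fold changes of IP over input from edgeR.

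Markers of other cells also differed between the fractions, against the background of 40.8% called. Of 8 macrophage markers 6 were lower in IP (median log2 fold change -0.84), as were 4 of 8 fibroblast markers (median -0.68). The 6 keratins had a median of 0.18, with 1 of them, Krt18, lower. The lowest macrophage sum in IP was still 3087 CPM. Their part in the levels of Cdh2, Twist1 and Cdh1 was not tested.

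Among the 6 IP libraries that entered the study's own comparison, Cdh1, Epcam and Cdh2 were lower after 6-3-A6. Those were IP replicates 2, 4 and 5 of control IgG, with replicates 1, 3 and 4 of 6-3-A6. Per the study's methods, the other 4 were removed as outliers of a principal component analysis of the IP libraries, in which all 10 separated little by treatment. The choice thus used the expression values that are compared here, so the p-values of these 6 libraries are given as a description and are not an independent test of treatment. Of the 10 genes 3 were called, all 3 lower, where 4.61% of 13999 tested genes were called. The median log2 fold change of the 10 genes was -0.23 against -0.05 over all tested genes. It was -0.08 without control IgG IP 4, -0.13 without control IgG IP 5 and -0.33 without 6-3-A6 IP 1.

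Cdh1 was 34.5, 30.2 and 19.0 CPM in the control libraries and 10.4, 11.9 and 9.37 CPM in the 6-3-A6 libraries, so that the groups did not overlap. It was 2.69-fold lower (log2 fold change -1.43, SE 0.24, edgeR adjusted p = 0.0179). In the input libraries of these 6 tumors, an alternative added after seeing the data, it measured 29.8 ± 3.87 CPM in control IgG and 33.6 ± 7.39 CPM in 6-3-A6 (SD, n = 3 each), a log2 fold change of 0.14.

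Epcam was 5.55, 5.04 and 2.47 CPM against 1.52, 1.27 and 1.42 CPM, which is 63 to 124 counts per control library and 26 to 30 counts per 6-3-A6 library. It was 3.14-fold lower (log2 fold change -1.65, SE 0.36, edgeR adjusted p = 0.0302). Its input means in these tumors were 4.06 ± 0.95 and 5.18 ± 3.53 CPM (SD, n = 3 each). Cdh2, which marks the opposite state, moved the same way as Cdh1 and Epcam: it was 125, 151 and 93.3 CPM against 70.3, 59.4 and 47.4 CPM, 2.13-fold lower (log2 fold change -1.09, SE 0.23, edgeR adjusted p = 0.0285), with input means of 172 ± 13.4 and 208 ± 81.1 CPM (SD, n = 3 each).

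The ratio of Cdh2 to Cdh1 was 3.63, 5.00 and 4.90 in the control libraries and 6.76, 5.00 and 5.06 in the 6-3-A6 libraries. It lay between 3.63 and 5.06 in 5 of these 6 libraries and was highest in 6-3-A6 IP 1, at 6.76.

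Vim (3506, 4148 and 3328 against 4906, 5186 and 5263 CPM), Zeb1 (161, 138 and 181 against 204, 232 and 198 CPM) and Snai1 (53.8, 53.9 and 34.8 against 58.8, 63.1 and 60.6 CPM) did not overlap either, with higher values in 6-3-A6, but none was called. The share of all tested genes without overlap in these libraries was not counted. Non-overlap of these genes and of Cdh1, Epcam and Cdh2 is thus no result about them. Their log2 fold changes were 0.46 (SE 0.25, edgeR adjusted p = 0.35) for Vim, 0.37 (SE 0.20, adjusted p = 0.33) for Zeb1 and 0.33 (SE 0.20, adjusted p = 0.41) for Snai1. Twist1 (-0.42, SE 0.25), Zeb2 (-0.32, SE 0.29), Twist2 (0.16, SE 0.44) and Snai2 (-0.15, SE 0.26) overlapped and were not called.

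The 3 calls depended on single libraries. Without 6-3-A6 IP 3 none of the 10 genes was called and 9 genes were called in the whole table, and without 6-3-A6 IP 4 none of the 10 was called among 161. Cdh1 kept its call in 4 of 6 such fits (-1.63 to -1.21), losing it without 6-3-A6 IP 3 (-1.52, edgeR adjusted p = 0.0602) and 6-3-A6 IP 4 (-1.35, adjusted p = 0.0531). Epcam kept it only without control IgG IP 5 (-1.93, edgeR adjusted p = 0.0181) and lost it without control IgG IP 2 (-1.40) or 4 (-1.51) and without 6-3-A6 IP 1 (-1.71), 3 (-1.58) or 4 (-1.66), with adjusted p up to 0.118. Cdh2 kept it without control IgG IP 5 (-1.25) and 6-3-A6 IP 1 (-1.23) and lost it without control IgG IP 2 (-1.04) or 4 (-0.89) and 6-3-A6 IP 3 (-1.09) or 4 (-0.95), with adjusted p up to 0.117. The direction of all 3 genes held in each of these fits.

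Markers of other cells differed between the same 2 sets of IP libraries. The 12 endothelial markers summed to 4116, 1287 and 2315 CPM in the kept control libraries and to 5172, 3915 and 4841 CPM in the kept 6-3-A6 libraries, and 3 of the 12 were called higher. The 8 macrophage markers summed to 7073, 7394 and 6282 CPM against 3671, 3449 and 3087 CPM, without overlap, and 6 of the 8 were called lower. Fibroblast sums were 2639, 1356 and 1206 against 1235, 571 and 737 CPM (2 of 8 called lower), and keratin sums 290.4, 355 and 305 against 156, 205 and 229.8 CPM (0 of 6 called). The 4 adipocyte markers had a lower median than these 4 lists (log2 fold change -1.16, 0 called), with sums of 23.6, 19.4 and 32.1 CPM against 12.9, 4.96 and 20.4 CPM. Of 8 mural markers Cspg4 was called lower (-2.21, edgeR adjusted p = 0.0178). No endothelial, macrophage, fibroblast or keratin marker was at 0 throughout. Their part in the lower Cdh1, Epcam and Cdh2 was not tested.

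Over all 10 IP libraries, Cdh1 was low in the 6-3-A6 group on average and no gene was called. The 2 control libraries that the study left out, with endothelial sums of 5816 and 5653 CPM, had Epcam at 1.14 and 1.10 CPM and Cdh2 at 59.7 and 59.3 CPM, within or below the range of the kept 6-3-A6 libraries. For Cdh1 they differed, with 51.8 CPM in control IgG IP 1 and 12.1 CPM in control IgG IP 3. The left-out 6-3-A6 libraries had Cdh1 at 19.8 and 24.4 CPM and Cdh2 at 98.2 and 77.2 CPM, and Epcam at 0.547 and 5.28 CPM, the lowest and the highest of their group.

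The log2 fold change of Cdh1 over the 10 libraries was -0.96 (SE 0.38, 15.2 against 29.5 CPM, edgeR adjusted p = 1.00, 0.0272 before adjustment), that of Epcam -0.60 (SE 0.61) and that of Cdh2 -0.48 (SE 0.29), and the groups overlapped for all 10 genes. Leaving out 6-3-A6 IP 5 moved Epcam to -1.38, and leaving out control IgG IP 2 moved it to -0.28. Cdh2 ran from -0.63 to -0.27 over such fits, the latter when control IgG IP 4 was left out. None of the 10 was called (0% of 13602 genes passed in edgeR, with 292 at an unadjusted p under 0.05, and 0 by DESeq2). The remaining 7 genes lay between -0.30 (Twist1) and 0.23 (Vim).

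**Figure D3:**
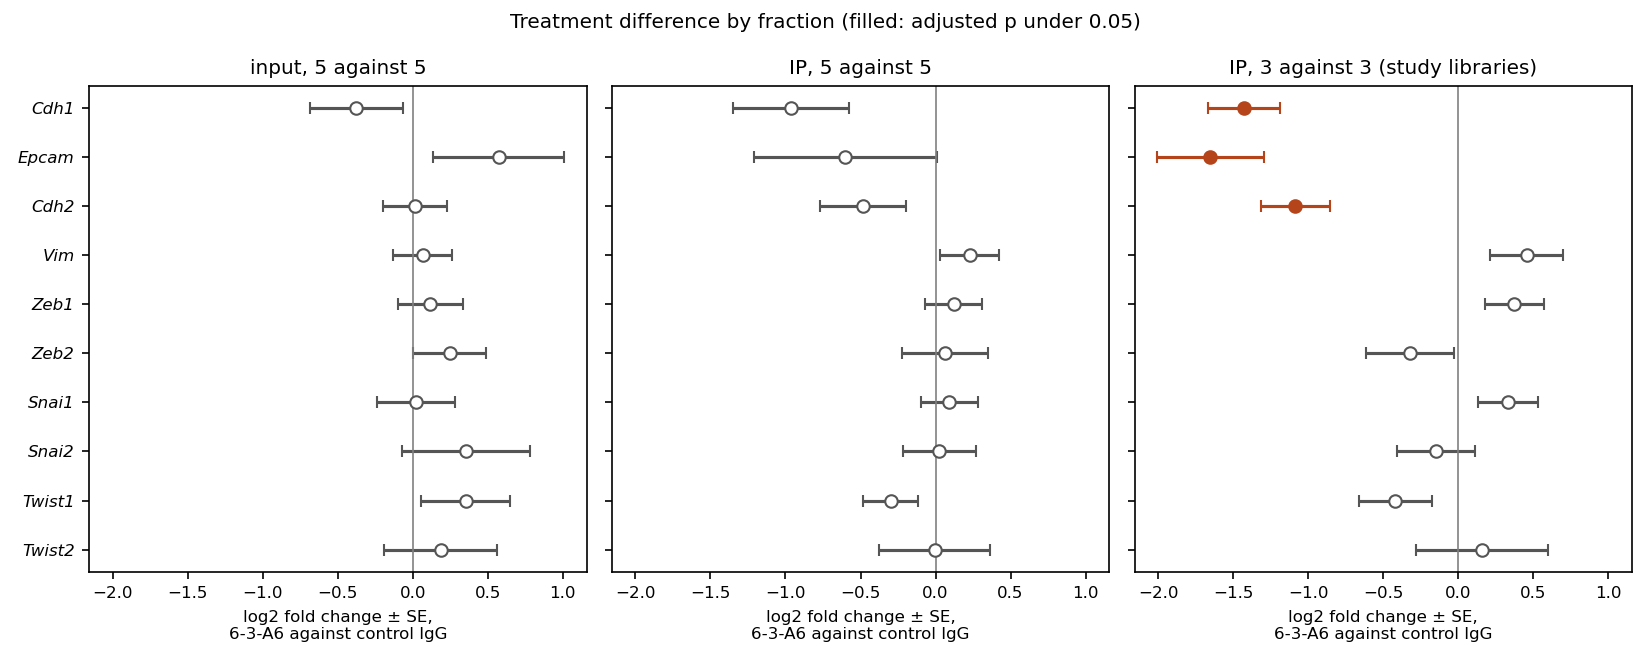
Log2 fold change of 6-3-A6 over control IgG (points ± SE) for each gene in input (5 against 5), in all IP libraries (5 against 5) and in the 6 IP libraries of the study's comparison (3 against 3), with filled points at an adjusted p under 0.05. Filled points appear only in the last panel, for Cdh1, Epcam and Cdh2, whose estimates in all IP libraries lie on the same side of 0 and closer to it.

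Across the 10 IP libraries, which are separate tumors that share the pulldown, relations with the same 8 marker lists are given where they were among the closest. Cdh2 was lower where endothelial markers were higher (r = -0.69, rho = -0.67, n = 10, and -0.78 without the 2 libraries farthest from its median). It was about as closely higher with macrophage markers (r = 0.66, rho = 0.68, and 0.45) and keratins (r = 0.64, rho = 0.66, and 0.51). With the endothelial markers, r was -0.18 for Cdh1 (rho = -0.09, and -0.43 without 2 libraries) and 0.03 for Epcam (rho = -0.16, and -0.14). Cdh1 was higher with fibroblast markers (r = 0.83, rho = 0.84, and 0.77) and with macrophage markers (r = 0.74, rho = 0.77, and 0.83), and Epcam with macrophage markers (r = 0.81, rho = 0.62, and 0.68) and adipocyte markers (r = 0.70, rho = 0.78, and 0.61). Vim and Zeb1 ran against the macrophage markers (both r = -0.86, with -0.90 and -0.74 without 2 libraries). Epcam and Zeb1 ran in opposite directions (r = -0.86, rho = -0.78, and -0.81 without 2 libraries), and Vim and Snai1 ran together (r = 0.80, rho = 0.83, and 0.80). For the pairs named in input, r in IP was -0.21 for Snai1 with Snai2 (rho = -0.19) and 0.09 for Zeb1 with Zeb2 (rho = 0.31). It was 0.60 for Cdh2 with Twist1 (rho = 0.44, and 0.17 without 2 libraries).

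**Figure D4:**
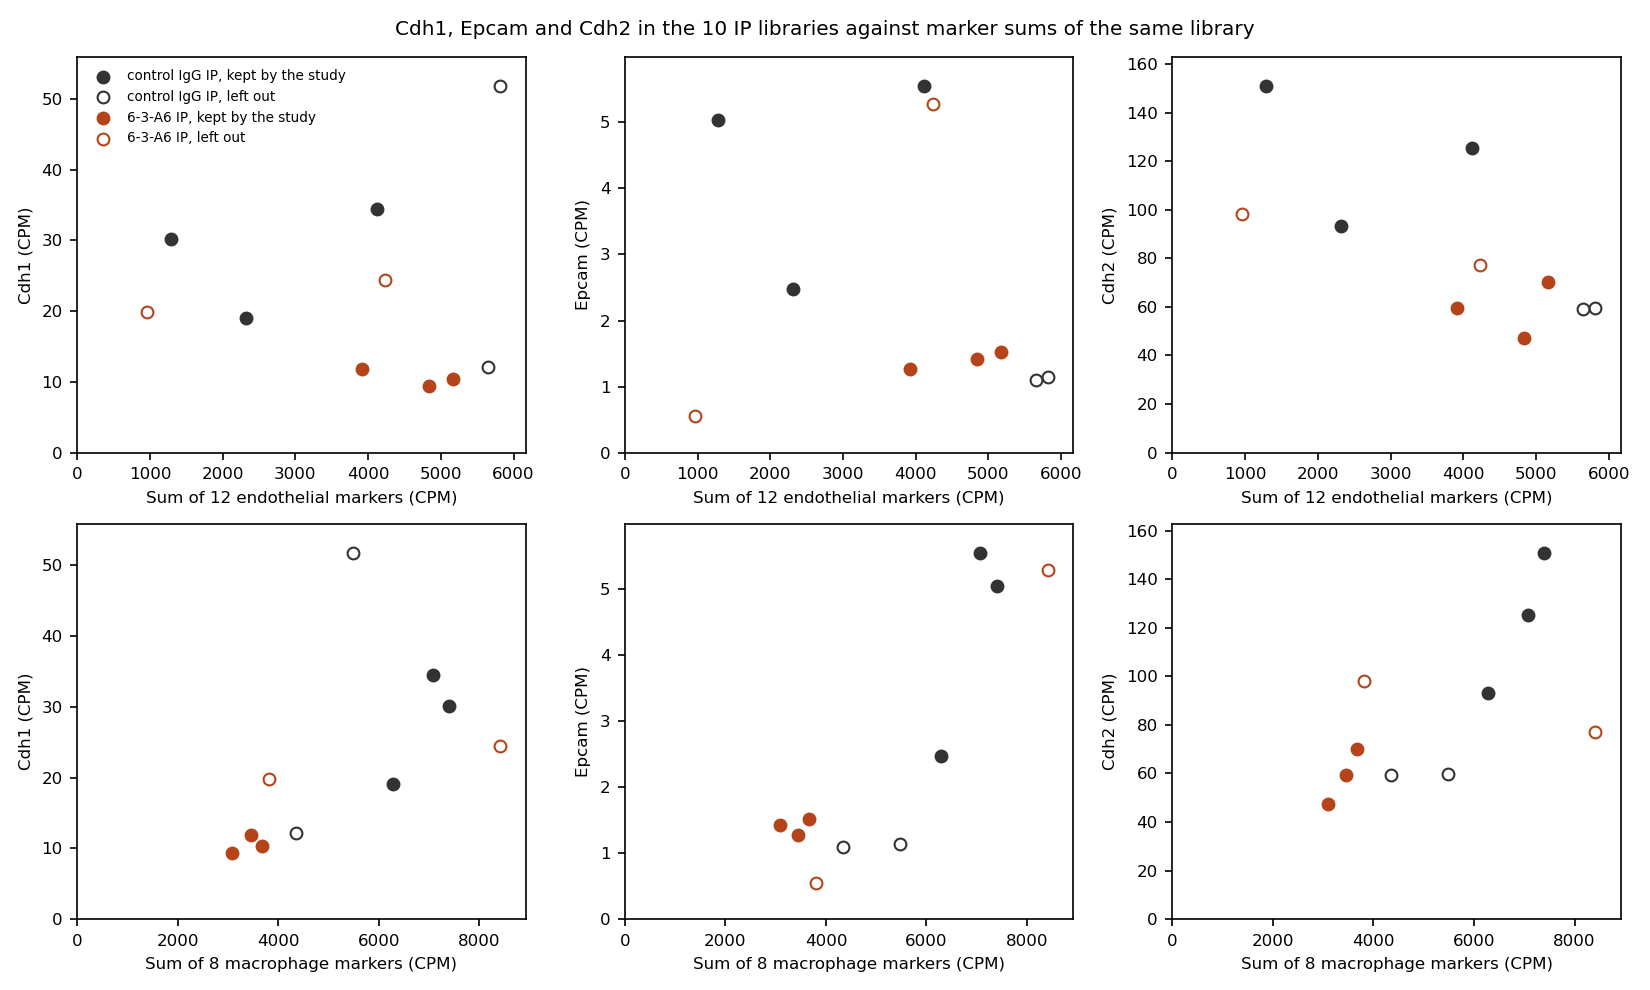
Level of Cdh1, Epcam and Cdh2 (CPM, linear axes from 0) in the 10 IP libraries against the summed CPM of 12 endothelial markers (upper row) and 8 macrophage markers (lower row) of the same library, filled where the study kept the library and open where it did not. The kept 6-3-A6 libraries lie together at low macrophage sums (3087 to 3671 CPM) and low levels of all 3 genes, and the kept control libraries at macrophage sums of 6282 to 7394 CPM.

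The lists gave few calls in the 6 kept libraries: 1 of 16 epithelial genes was lower (Spint1, 23.7 against 61.6 CPM, log2 fold change -1.41, edgeR adjusted p = 0.0168), as were 3 of 16 mesenchymal genes, the matrix protein Tgfbi (-1.07), the matrix metalloproteinase Mmp2 (-1.05) and tenascin Tnc (-0.87). Of 9 cadherins and catenins Cdh15 was lower (-2.11, edgeR adjusted p = 0.0369), and 0 of 14 inducers were called. Epithelial and mesenchymal lists had like medians, -0.66 and -0.65, against -0.05 over all tested genes, and the inducers had -0.04. Over all 10 IP libraries 0 genes of the 4 lists were called.

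Whether the treatment changed the step from input to IP was tested directly as an interaction over 20 libraries. The 6-3-A6 difference lay furthest below the control difference for Epcam (log2 -1.20, SE 0.79), Twist1 (-0.66, SE 0.37), Cdh1 (-0.60, SE 0.52) and Cdh2 (-0.50, SE 0.37), and 0 of the 10 genes were called (edgeR adjusted p = 1.00). Without 6-3-A6 input 4 these values were -0.83 for Epcam, -0.29 for Twist1, -0.45 for Cdh1 and -0.24 for Cdh2. Other single libraries moved Epcam to -1.95 (without 6-3-A6 IP 5) and Cdh1 to between -1.02 (without control IgG input 1) and -0.30 (without control IgG IP 1). The background was 0% of 14488 genes, 125 had an unadjusted p under 0.05, and DESeq2 called 0. Among the 6 tumors of the study's IP comparison the interaction was larger, at -1.96 for Epcam, -1.58 for Cdh1, -1.34 for Twist1 and -1.33 for Cdh2, and was not called either (edgeR adjusted p = 0.569, 0.513, 0.566 and 0.551). For Zeb1 over 20 libraries the step was 0.67 in control IgG and 0.68 in 6-3-A6, with an interaction of 0.01 (SE 0.29), and the interaction was -0.34 for Snai2, -0.20 for Twist2, -0.19 for Zeb2, 0.07 for Snai1 and 0.16 for Vim. Without 6-3-A6 input 4 that of Snai2 was 0.36 and that of Snai1 -0.06.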

How the data were processed

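RNA of 10 Py8119 tumors was sequenced as input and as anti-HA IP, 20 libraries in all, grouped by title. Per the study's methods and the submitters' processing notes, the authors aligned reads with STAR 2.7.4a and made the deposited counts per gene with featureCounts (2.0.1, with 1.5.2 also listed), with no normalization. Gene lengths in the table equal the whole span for 55789 of 55789 single-span genes, so intron reads were counted with exon reads. The methods name mm10 and the processing notes list GRCh38 beside it, but 9 of the 10 genes lie elsewhere in GENCODE vM21 (GRCm38), so only positions from that annotation are given and the build of the counting annotation is not given in the sources used here. A second deposited table holds a signal in normalized counts, which the authors made with DESeq2 by dividing counts by one constant per library (100% of genes at a relative tolerance of 1e-06). It was used only to see which 6 IP libraries entered the study's comparison, and its fold changes and p-values, the authors' own comparison, were not used.

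Counts were tested with edgeR 4.0.16 (R 4.3.3, TMM, filterByExpr, quasi-likelihood test, Benjamini-Hochberg threshold 0.05) over all genes. Fits of IP against input used 20 libraries, and treatment fits the libraries of their fraction. CPM are on the TMM scale, and log2 CPM used a prior count of 2. SE is the log2 fold change divided by the root of F. Alternatives were DESeq2 1.42.0, its size factors in edgeR, no filter, the tumor or replicate number as a block, the 6 tumors of the study's comparison, and leaving out each library. Input and IP of a tumor share the animal (correlation of their deviations -0.08 to 0.70 over 10 tumors). No pair of libraries within a group was a duplicate (40 pairs, lowest median chi-square 2.05 against 0.455 for sampling noise). In simulated counts with 200 changed genes, the IP-against-input fit recovered 162 of 196 tested with 5 false calls among 13985 genes. The fit of the study's 6 IP libraries recovered 129 of 197 tested (38 of 100 changed 2-fold and 91 of 97 changed 4-fold). It made 13 false calls beside those 129, among 13817 genes, and the study's choice of libraries was not simulated.

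The 10 genes are given by value or range in every comparison. From each pathway list the 3 called genes of largest change are named or, with none called, those of smallest p, and in input the 3 genes closest to each of the 10. One gene that this rule names is not reported here. The genes and lists were chosen with earlier results of these data known. Libraries are separate tumors as the titles number them. Promoter sequences are from RefSeq (GRCm38.p6). Tables and figures were made with numpy 2.4.6, pandas 2.3.3 and matplotlib 3.10.9.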

Additional observations from a re-analysis of the deposited data

Results flagged for a closer look

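In each of the 4 groups the value of each of the 10 genes was checked for a library far from the other 4, and 5 of 40 sets held one. Chance alone gives about 1 in 20 such sets. Cdh1 was 76.89 CPM in control IgG input 1 against 25.1 to 34.2 CPM in the other control inputs. Cdh2 was 299.9 CPM and Snai2 70.85 CPM in 6-3-A6 input 4, against 129.6 to 175 CPM and 11.5 to 22.3 CPM in the other 6-3-A6 inputs. In 6-3-A6 IP 5, Epcam was 5.281 CPM against 0.547 to 1.52 CPM, and Snai1 was 39.02 CPM against 58.8 to 63.1 CPM.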

How the results depend on the processing

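Of 1380 log2 fold changes refitted for the 10 genes, 1255 kept direction and side of the threshold, and of 277 for genes called in their comparison, 49 lost the call and 0 changed direction. For fits within a treatment, these tallies include leaving out libraries of the other treatment. Such fits can move a value only through the shared filter, scaling and spread, so the tallies overstate stability there. Without the filter on low counts the genes called between IP and input fell from 5 to 3 of 10 (Cdh1 -0.60, Twist2 -0.72) with 5453 of 30494 genes called, in control IgG from 2 to 0 with 1279 of 30494, and between treatments in the study's 6 IP libraries 1459 genes were called (1190 by DESeq2) against 646. In the tumors of those 6 libraries, 3381 genes and 4 of the 10 were called between IP and input (Twist2 lost its call, at -0.70), 607 genes and 0 of the 10 in control IgG, and 3174 genes and 5 of the 10 in 6-3-A6. The causes were not tested. With the tumor as a replicate block, 3249 genes and 2 of the 10 were called in control IgG, and 5554 genes and 6 of the 10 in 6-3-A6. Between treatments the replicate number is only a number (correlation of deviations -0.33 to 0.24 in input, -0.19 to 0.37 in IP), and the block there changed no call. No block was fitted for the study's 6 IP libraries, whose treatment groups come from different tumors and share only number 4.

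Uncalled values changed sign as follows. For Cdh1 in input it was 0.144 in the 6 tumors, for Cdh2 in input -0.051 with no filter and -0.046 with the block, for Epcam between IP and input in control IgG 0.0069 with no filter and 0.103 in the 6 tumors, and for Twist2 over all IP libraries 0.014 with DESeq2, 0.0062 with its size factors, 0.0057 with no filter and 0.065 with the block. Leaving out single libraries gave, for treatment in input, Cdh1 -0.50 to 0.042, Cdh2 -0.23 to 0.11, Vim -0.042 to 0.11, Snai1 -0.096 to 0.16, Snai2 -0.32 to 0.55 and Twist2 -0.021 to 0.51. Between IP and input it gave, in control IgG, Cdh1 -0.67 to 0.046, Epcam -0.38 to 0.17 and Zeb2 -0.28 to 0.026, and in 6-3-A6, Vim -0.031 to 0.12 and Snai2 -0.84 to 0.083. For treatment in IP it gave Snai2 -0.50 to 0.040 and Twist2 -0.20 to 0.63 in the study's libraries, and Zeb2 -0.11 to 0.22, Snai1 -0.022 to 0.19, Snai2 -0.12 to 0.13 and Twist2 -0.17 to 0.28 over all libraries. For the interaction it gave Zeb1 -0.15 to 0.14, Snai1 -0.058 to 0.20, Snai2 -0.54 to 0.36 and Twist2 -0.53 to 0.098. The number of the 10 genes called was then 3 to 5 between IP and input (5219 to 6359 genes), 0 to 3 in control IgG (1088 to 2385 genes), 2 to 5 in 6-3-A6 (2865 to 4227 genes) and 0 to 3 in the study's IP libraries (9 to 653 genes). The higher counts include genes newly called, Twist1 in control IgG and Cdh1 and Epcam in 6-3-A6.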
